A study of Mus musculus with 4 samples.

Results

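The 8 genes described here, Trim28, Setdb1, Atf7ip, Morc3, Cbx1, Cbx3, Cbx5 and Zfp57, encode proteins of silencing by KRAB zinc finger proteins: corepressors and chromatin proteins, and in Zfp57 a KRAB zinc finger protein itself. Their rows were taken from a table of H3K27ac HiChIP contacts by position: a row joins a pair of anchors (genomic intervals between which read pairs were counted), and it was kept when at least 1 anchor overlapped a GENCODE M21 transcription start site of a member. The rule kept 279 of 1513030 rows, which used 4 anchors over start sites of 3 genes: 80 rows of Trim28, 101 of Setdb1 and 98 of Cbx3. Atf7ip, Morc3, Cbx1, Cbx5 and Zfp57 had no anchor over any start site. Among 20807 autosomal protein-coding genes of the annotation, 13996 (67.3%) had such an anchor.

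HiChIP ligates DNA ends that lie close together in fixed nuclei and enriches the products with an antibody, here against the acetylated histone H3K27ac, a mark of active promoters and enhancers. Embryonic stem cells of 2 inbred mouse strains, C57BL/6J (here B6) and DBA/2J (here D2), were compared, with 2 lines each (B6 4-1 and B6 5-1; D2 2-9 and D2 5-5) and 1 library per line. All lines grew in high glucose DMEM with 15% serum, penicillin and streptomycin, GlutaMAX, sodium pyruvate, non-essential amino acids, 2-mercaptoethanol, LIF, 1 μM PD0325901 (a MEK inhibitor) and 3 μM CHIR99021 (a GSK3 inhibitor), were fixed in 1% formaldehyde and were cut with DpnII. The labels give the strain as the only genotype of each line. All p-values measure differences against a spread between libraries that was estimated partly over many pairs or anchors at once. With 1 library per line, the spread between lines cannot be told apart from that between libraries. D2 replicate 1 has the mark 10cyc in its library name where the other 3 names have 8cyc, a difference that the labels do not explain.

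Library totals were 2767882 to 2944258 counts and levels are given in CPM, the count scaled to the library total. D2 replicate 1 had counts in the fewest pairs of the whole series, 715798, where the other libraries had 803268 to 833100. Of 10 markers of naive pluripotent stem cells, 7 had an anchor over a start site, with summed levels of 1767 to 1950 CPM in B6 and 1833 to 2831 CPM in D2, the highest in D2 replicate 1; Tfcp2l1, Esrrb and Klf2 had none. Of 7 markers of fibroblast feeder cells, Thy1 and Twist1 had one, at 8.57 to 10.3 CPM in B6 and 4.70 to 9.17 CPM in D2, and the 3 collagen genes, Twist2 and Postn had none. Of 7 endoderm and mesoderm markers, 6 had one, at 119 to 129 CPM in B6 and 125 to 142 CPM in D2. Their part in the results was not tested.

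KRAB zinc finger proteins bind DNA through their zinc fingers, often in transposable elements, and their KRAB domain binds TRIM28 (also KAP1), a scaffold. TRIM28 brings in SETDB1, which methylates histone H3 on lysine 9, and HP1 proteins, encoded by Cbx1 (HP1β), Cbx3 (HP1γ) and Cbx5 (HP1α), which bind that mark. ATF7IP binds and stabilises SETDB1, MORC3 is an ATPase of silent chromatin, and ZFP57 is a KRAB zinc finger protein that maintains methylation at imprinted control regions. In embryonic stem cells this machinery is known for silencing endogenous retroviruses, while its own genes are widely transcribed.

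Rows were chosen by all GENCODE M21 starts of a gene. The sequences shown here lie just upstream of 1 RefSeq start of each of the 3 genes with an anchor. Each runs for 250 bases up to the base before a RefSeq transcription start (GRCm38.p6), 5′ to 3′ on the gene's strand. Capitals mark the GC box GGGCGG, the CCAAT box CCAAT and the DpnII site GATC on either strand. The windows lie at chr7:13023902-13024151 (plus strand, Trim28), chr3:95357203-95357452 (minus strand, Setdb1) and chr6:51470366-51470615 (plus strand, the first of 2 Cbx3 windows).
Trim28: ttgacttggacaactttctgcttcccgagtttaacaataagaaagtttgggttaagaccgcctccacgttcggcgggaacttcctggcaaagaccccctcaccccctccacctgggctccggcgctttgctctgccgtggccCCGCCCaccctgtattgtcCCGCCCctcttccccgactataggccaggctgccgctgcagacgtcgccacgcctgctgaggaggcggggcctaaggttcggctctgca
Setdb1: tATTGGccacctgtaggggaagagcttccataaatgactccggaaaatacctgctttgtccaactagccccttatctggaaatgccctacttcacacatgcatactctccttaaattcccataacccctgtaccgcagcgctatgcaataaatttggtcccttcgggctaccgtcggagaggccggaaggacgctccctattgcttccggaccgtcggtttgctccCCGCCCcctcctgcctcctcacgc
Cbx3: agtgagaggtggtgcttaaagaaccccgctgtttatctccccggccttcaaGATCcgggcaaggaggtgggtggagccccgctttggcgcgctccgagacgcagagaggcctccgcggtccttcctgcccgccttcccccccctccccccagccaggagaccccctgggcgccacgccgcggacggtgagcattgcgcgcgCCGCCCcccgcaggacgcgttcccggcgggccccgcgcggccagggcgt

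All 3 windows lay inside the anchors of their genes, that of Trim28 in the wider of its 2 anchors. They held 17 (Trim28), 13 (Setdb1) and 29 (Cbx3) CpG dinucleotides, against a median of 6 and quartiles of 2 and 16 over 32851 RefSeq windows of this length from 27025 genes. The Trim28 window held 2 GC boxes, 108 and 89 bases before the start, and the Setdb1 and Cbx3 windows held 1 each, 24 and 49 bases before it; 32.7% of all windows hold at least 1. The CCAAT box, in 33.8% of windows, was matched once, on the reverse strand 249 bases before the Setdb1 start. GATC, in 41.9% of windows, was matched once, 199 bases before the Cbx3 start. TATAAA (12.4% of windows), ACTTCCGG (2.88%), GCCATNTT (3.91%) and CACGTG (6.02%) had no match on either strand in the 3 windows, and no match overlapped another. These matches describe letters and no factor's binding was measured.

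Trim28, the scaffold gene (chr7:12999114-13031035, plus strand), had the highest summed level of the 3 genes with a start-site anchor, and the only such anchor that passed the test between the strains. It was covered by 2 anchors. A 3.17 kb anchor at chr7:12996519-12999684 held 1 of its 10 annotated transcript starts and a start of Slc27a5, a bile acid and fatty acid CoA ligase. A 45.6 kb anchor at chr7:13001818-13047420 held the other 9, along with starts of Chmp2a (an ESCRT-III subunit), Ube2m (a NEDD8-conjugating enzyme) and Zbtb45 (a BTB zinc finger gene). Counts of this wide anchor cannot be divided among its 4 genes. It was wider than 99.2% of anchors over start sites, whose median width was 5942 bp.

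The wide Trim28 anchor had summed levels of 410 and 413 CPM in B6 replicates 1 and 2 and of 792 and 479 CPM in D2 replicates 1 and 2. Both D2 libraries were above both B6 libraries, as in 21.5% of all tested anchors, with D2 replicate 1 far above the rest. The mean ± SD of 2 libraries was 411 ± 2.78 CPM for B6 and 635 ± 221 CPM for D2, a log2 fold change, D2 over B6, of 0.68 ± 0.20 (SE; edgeR's quasi-likelihood test, Benjamini-Hochberg adjusted p = 0.0231). Of all 18226 tested anchors over start sites, 10.7% passed this test, 4% higher and 6.67% lower in D2. Without D2 replicate 1 the log2 fold change was 0.20 (edgeR adjusted p = 0.517), without D2 replicate 2 it was 1.04 (2.07e-11), and without B6 replicate 1 or 2 it was 0.68 (0.267) and 0.66 (0.356). The call was thus lost without any library but D2 replicate 2, and also under DESeq2 (adjusted p = 0.631).

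The narrow Trim28 anchor had 43.0 and 34.3 CPM in B6 and 63.2 and 44.2 CPM in D2, again with D2 replicate 1 highest and with D2 replicate 2 close to B6 replicate 1. These sums are not independent of the wide anchor, since the pair joining both anchors enters both. That pair supplied 15.5 of the 43.0 CPM (B6 replicate 1) and 13.6 of the 34.3 CPM (B6 replicate 2). For D2 it supplied 33.2 of the 63.2 CPM (replicate 1) and 21.1 of the 44.2 CPM (replicate 2). The narrow anchor was not tested without this pair. With the pair included, the narrow anchor's log2 fold change of 0.51 ± 0.18 did not pass (edgeR adjusted p = 0.0716). Per kb of anchor, the narrow and the wide one had 14.6 and 11.5 CPM per kb over all libraries, above 95.4% and 88.3% of anchors over start sites, whose median was 5.47 CPM per kb.

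**Figure D1:**
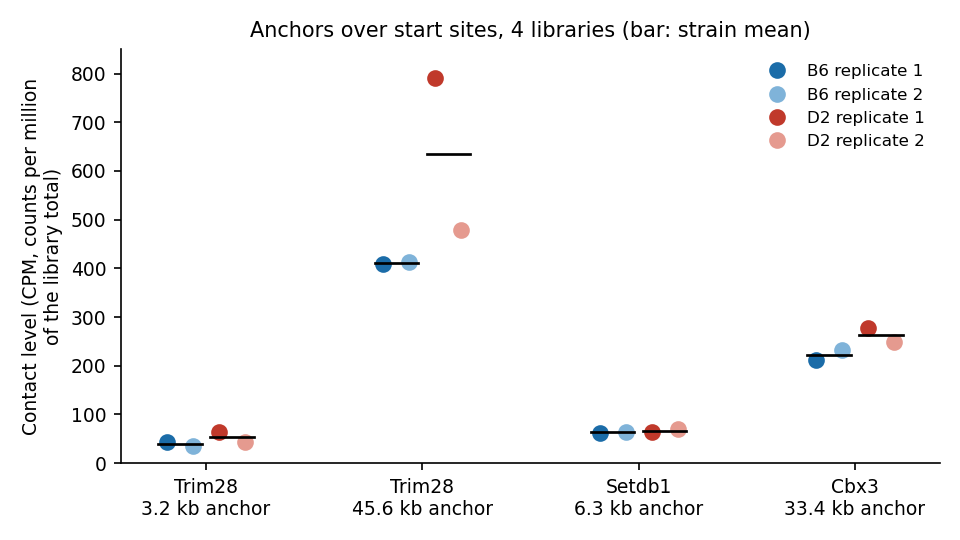
Summed contact level (CPM, y axis) of the 4 anchors over start sites of Trim28, Setdb1 and Cbx3 in each of the 4 libraries (points), with the strain mean as a bar. In the 45.6 kb Trim28 anchor, D2 replicate 1 stands at 792 CPM against 410 to 479 CPM in the other 3 libraries, while the 4 Setdb1 points lie between 62.9 and 69.3 CPM.

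Many partners of Trim28 were zinc finger genes. Its 80 rows reached 53 partner anchors, of which 18 held a start site of another protein-coding gene and 11 of these a start of a gene named Zfp, Zscan or Mzf1 (Zfp551, Zfp606, Zscan18, Zfp329, Zfp110, Zfp128, Zscan22, Zfp324, Zfp446 and Mzf1; Zscan18 in 2 anchors). These 11 took 50.4 ± 1.66% (B6) and 52.3 ± 0.577% (D2) of the Trim28 counts (mean ± SD of 2 libraries, as below), and all 18 start-site partners together took 73.9 ± 0.151% and 73.6 ± 1.06%. Of the partners without a start site, 27 were intergenic, 4 overlapped exons and 4 lay in introns. The gene lies among many zinc finger genes on chromosome 7.

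Most Trim28 counts went to partners at lower coordinates, 75.1 ± 2.26% of counts in B6 and 75.1 ± 1.00% in D2. Pair distances, here and below, run between anchor midpoints. Partners from 50 to 150 kb away took 51.0 ± 0.743% in B6 and 49.9 ± 0.911% in D2, and partners at 500 kb or more took 3.74 ± 0.167% and 2.23 ± 0.670%. The median distance of a count was 74.6 kb in 3 libraries and 73.3 kb in D2 replicate 1. The median moved with the pairs kept: its difference, D2 minus B6, was -0.67 kb over all pairs, -13.2 kb over pairs with at least 20 counts and -6.08 kb over pairs with at least 2 counts in the library. The share of the far partners was lower in both D2 libraries (1.76 and 2.71%) than in both B6 libraries (3.86 and 3.62%). No test was run on shares or distances, since with 2 libraries per strain the smallest p of an exact permutation test is 0.333.

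**Figure D2:**
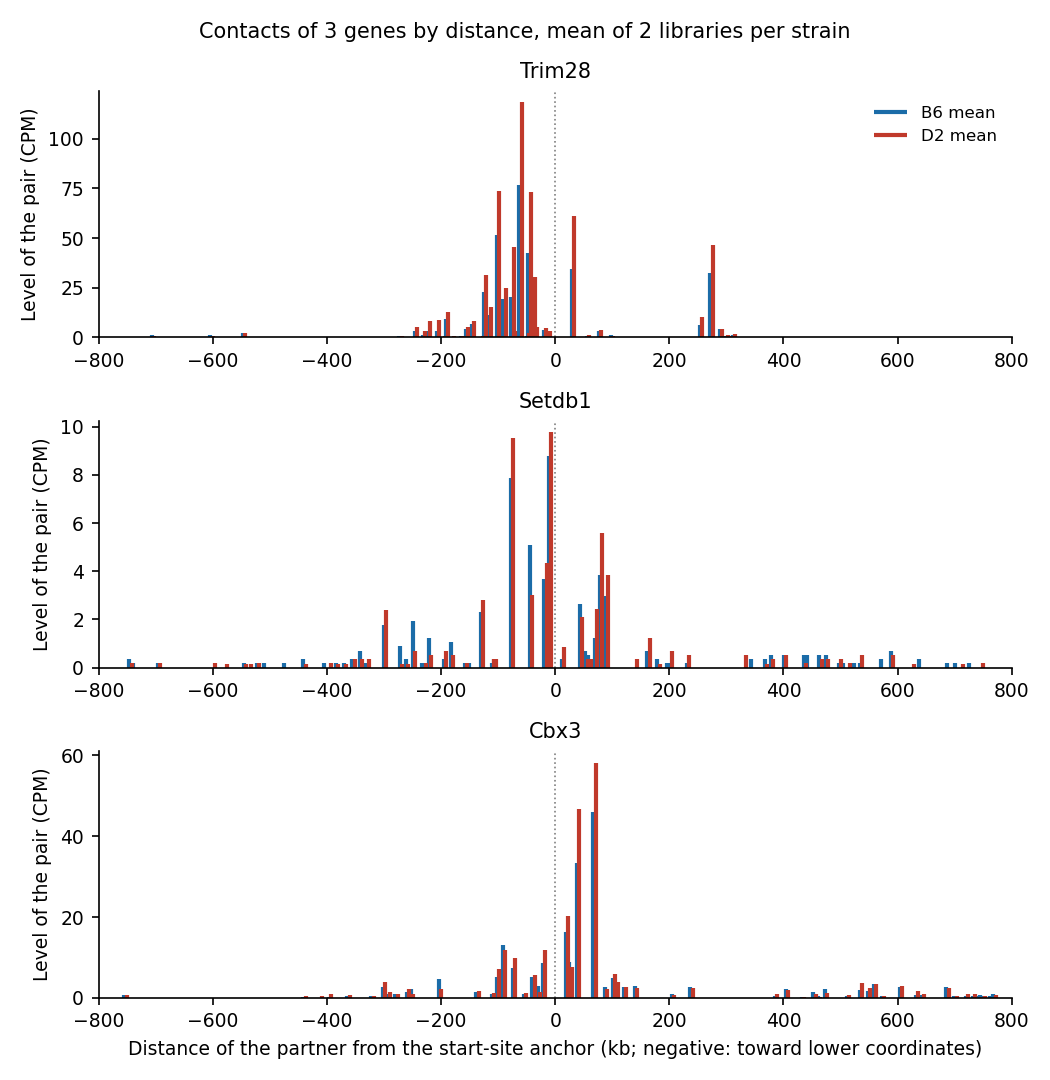
Level of each anchor pair (CPM, strain means of 2 libraries, y axes differ in scale) against the distance of the partner from the start-site anchor (kb, within 800 kb; negative toward lower coordinates) for Trim28, Setdb1 and Cbx3. Trim28 contacts lie mostly on the negative side (75.1% of counts in each strain), Cbx3 contacts mostly on the positive side (70.1% in B6 and 71.1% in D2).

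The strongest Trim28 pair joined the wide anchor to the anchor over Zfp324, a zinc finger gene 60.7 kb away, and held 17.8% of the gene's counts. It had 225 and 214 counts in B6 and 404 and 267 in D2, or 77.4, 76.4, 146 and 90.7 CPM. Both D2 libraries were above both B6 libraries, but the log2 fold change of 0.55 ± 0.22 did not pass (edgeR adjusted p = 0.219).

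Of the 63 member pairs with at least 20 counts over the 4 libraries, 3 passed the test, and all 3 belonged to Trim28 and were higher in D2; among all 108034 tested pairs 1.45% passed, 0.492% higher and 0.957% lower in D2. The first joined the wide anchor to an intergenic anchor at chr7:12947037-12952951, 74.6 kb away and 12.9 kb from the nearest protein-coding start site, that of Zfp324. It had 61 and 54 counts in B6 and 168 and 88 in D2, means of 20.1 ± 1.2 and 45.3 ± 21.8 CPM and a log2 fold change of 1.09 ± 0.24 (edgeR adjusted p = 0.00139). Both D2 libraries were above both B6 libraries, D2 replicate 1 at 60.7 CPM and D2 replicate 2 at 29.9 CPM.

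The pair of Trim28 and Mzf1, a zinc finger gene studied in myeloid cells, had 86 and 109 counts in B6 and 216 and 131 in D2. The anchor midpoints were 30.9 kb apart, but the anchors were near neighbours. The wide anchor ended at chr7:13047420, and the Mzf1 anchor began at chr7:13049649. The wide anchor also overlapped the body of Mzf1. The log2 fold change of this pair reached 0.77 ± 0.23 (edgeR adjusted p = 0.0466), with both D2 libraries above both B6 libraries. The pair with Zfp329, 205.5 kb away, had 8 and 9 counts in B6 and 31 and 18 in D2, the largest log2 fold change of the tested member pairs at 1.45 ± 0.41 (edgeR adjusted p = 0.0357). Without D2 replicate 1 the log2 fold changes were 0.51 (intergenic), 0.32 (Mzf1) and 0.96 (Zfp329), with edgeR adjusted p-values of 0.546, 0.743 and 0.642, and no member pair passed (6 of 63 had an unadjusted p under 0.05). Without D2 replicate 2, 10 passed. Without B6 replicate 1 or 2 none did, with 7 and 6 at an unadjusted p under 0.05, and DESeq2 on all 4 libraries called none, with 6.

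Below the threshold, Zfp446 (44.9 kb; 134, 110, 268 and 147 counts in B6 replicates 1 and 2 and D2 replicates 1 and 2; edgeR adjusted p = 0.0732) and the pair of the 2 Trim28 anchors with each other (26.5 kb; 45, 38, 92 and 62 counts; edgeR adjusted p = 0.0696) had both D2 libraries above both B6 libraries. So did one Zscan18 anchor, 221.5 kb away, with 9 counts in each B6 library and 25 and 22 in D2 (edgeR adjusted p = 0.0765). The anchor over Lig1, a DNA ligase gene on the higher-coordinate side (273.9 kb), had 92 counts in each B6 library and 165 and 99 in D2. The longest tested pair, with the sulfotransferase gene Sult2a3 1093 kb away, had 9, 6, 13 and 5 counts and a log2 fold change of 0.20 ± 0.54.

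D2 replicate 1 was the highest library in most tested Trim28 pairs. Of the 28 tested Trim28 pairs, 24 had a log2 fold change above 0 (85.7%, against 51.1% of all tested pairs), with a median of 0.38 and a range from -1.69 to 1.45 against a median of 0.02 over all pairs. Both D2 libraries were above both B6 libraries in 12 of the 28 (42.9%, against 23.8% of all tested pairs). These background shares were higher in strong pairs, and 12 of the 28 had at least 100 counts. Of all tested pairs with at least 100 counts, 60.9% were above 0 and 37.0% had both D2 libraries above both B6 libraries. For Trim28 these were 12 and 9 of its 12. D2 replicate 1 had the highest CPM in 21 of the 28 (75%, against 31.8%) and in all 12 pairs with at least 100 counts (against 46.4% of such pairs in the table). These pairs share the Trim28 anchors and are not independent. Without D2 replicate 1 the median was 0.04, with 16 of 28 above 0.

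**Figure D3:**
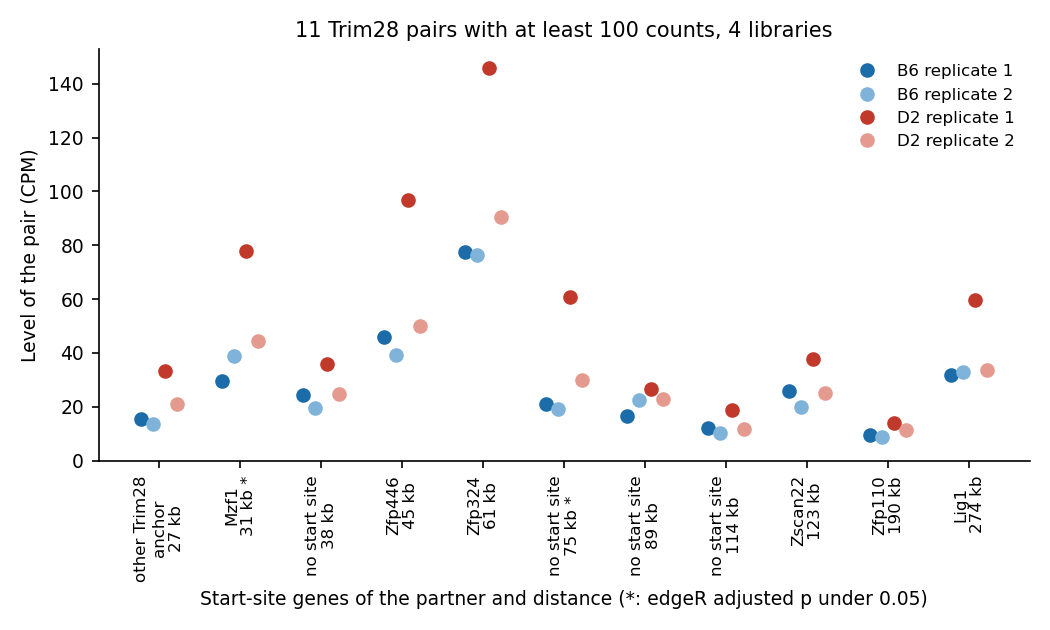
Level (CPM, y axis) of 11 of the 12 Trim28 pairs with at least 100 counts in each of the 4 libraries (points), labelled by the genes starting in the partner and its distance; a star marks an edgeR adjusted p under 0.05. D2 replicate 1 is the highest point in all 11, and reaches 146 CPM with Zfp324, where the other 3 libraries lie between 76.4 and 90.7 CPM.

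By class of partner, the 13 tested pairs with zinc finger start sites had a median log2 fold change of 0.39 (11 above 0), the 6 with other start sites 0.32 (5 above 0) and the 8 with no start site 0.33 (7 above 0), leaving aside the pair of both Trim28 anchors. The classes were close in these medians. The lowest value came from the narrow anchor, whose pair with Zscan22 (96.9 kb) had 10 and 6 counts in B6 and 3 and 2 in D2 (log2 fold change of -1.69, edgeR adjusted p = 0.261), while the wide anchor's pair with the same partner had 75, 56, 105 and 74 counts. Of the narrow anchor's other tested pairs, those with Zfp324 (17, 13, 15 and 16 counts) and Zfp446 (12, 9, 17 and 10) showed no separation of the strains.

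Pairs within 500 kb of the Trim28 start that did not use its anchors had summed levels of 476 and 457 CPM in B6 and 690 and 537 CPM in D2, a log2 ratio of 0.39, against 0.60 for the Trim28 rows themselves (437, 434, 822 and 502 CPM). The order of the libraries was the same in the surroundings. Of 72 tested pairs there, 52 had a log2 fold change above 0, a larger share than the 51.1% of all tested pairs. None passed by edgeR or DESeq2, and 13 had an unadjusted edgeR p under 0.05. The part of the wider region in the Trim28 values was not tested.

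Setdb1, the H3K9 methyltransferase gene (chr3:95323525-95357202, minus strand), had a level that hardly moved between libraries. All 6 of its transcript starts lay in a 6.32 kb anchor at chr3:95353210-95359534, which also held a start of the gene model Gm37500. Its summed level was 62.9 and 64.3 CPM in B6 and 63.9 and 69.3 CPM in D2, with means of 63.6 ± 0.950 and 66.6 ± 3.78 CPM. The groups overlapped, and the log2 fold change was 0.10 ± 0.16 (edgeR adjusted p = 0.777). Its density of 10.3 CPM per kb was above that of 83.9% of anchors over start sites.

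Setdb1 spread its counts over many thin pairs. Its 101 rows reached 101 partners, 55 with a start site of a protein-coding gene, and 42 of the rows had a single count; only 10 rows had at least 20 counts, and those held 66.0% of its counts. Start-site partners took 59.2 ± 5.93% of counts in B6 and 56.0 ± 7.10% in D2, 1 partner was a zinc finger gene, and the median distance was 75.2 or 80.2 kb in each library. Its strongest pair lay within the gene, with an anchor at chr3:95342205-95351098 (9.72 kb away), and had 22 and 28 counts in B6 and 23 and 33 in D2 (log2 fold change of 0.09 ± 0.32).

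The next strongest Setdb1 pair was with the anchor over the deubiquitinase gene Mindy1 and the phosphodiesterase gene Prune1 (75.2 kb; 26 and 19 counts in B6, 32 and 22 in D2). Arnt, which encodes the dimer partner of the hypoxia factor HIF-1α, was 80.2 kb away (13 and 9 counts in B6, 13 and 19 in D2). The strains overlapped in the first, and in the second both D2 libraries (4.70 and 6.45 CPM) were above both B6 libraries (4.47 and 3.21 CPM), a difference that did not pass (edgeR adjusted p = 0.748). The smallest p belonged to the anchor over Anxa9 and the ceramide synthase gene Cers2 (42.9 kb; 14 and 15 counts in B6, 11 and 6 in D2; log2 fold change of -0.83 ± 0.46, edgeR adjusted p = 0.490), where both D2 libraries were below both B6 libraries. The longest tested pair, with Pip5k1a and the proteasome gene Psmd4 at 297.9 kb, had 4, 6, 3 and 11 counts and a log2 fold change of 0.41 ± 0.62.

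None of the 10 tested Setdb1 pairs passed by edgeR or DESeq2, and none had an unadjusted edgeR p under 0.05. Of their log2 fold changes 8 were above 0 (51.1% were among all tested pairs), with a median of 0.21 (range from -0.83 to 0.91). Pairs within 500 kb of the Setdb1 start that used no anchor over the gene had 1933 and 1830 CPM in B6 and 1916 and 1947 CPM in D2, a log2 ratio of 0.04. The strains overlapped in this sum. Of 223 tested pairs there, 2 passed by edgeR, both lower in D2, as did 0.957% of all tested pairs. DESeq2 called none, and 11 had an unadjusted edgeR p under 0.05.

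Cbx3, the gene of HP1γ (chr6:51470360-51483704, plus strand), shared a 33.4 kb anchor at chr6:51454601-51487965 with Hnrnpa2b1, an RNA-binding protein gene whose start lies next to that of Cbx3. All 8 Cbx3 transcript starts lay in it. Its summed level was 212 and 233 CPM in B6 and 279 and 249 CPM in D2, with means of 222 ± 14.6 and 264 ± 20.9 CPM. Both D2 libraries were above both B6 libraries, as in 21.5% of all tested anchors, and the log2 fold change of 0.29 ± 0.17 did not pass (edgeR adjusted p = 0.334); it was 0.14 without D2 replicate 1 and passed only without D2 replicate 2 (0.42, edgeR adjusted p = 0.0229). At 7.29 CPM per kb the anchor was above 65.9% of anchors over start sites, the lowest rank of the 4.

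Cbx3 contacted mostly anchors with no start site. Of its 98 partners, 23 held a start site, 45 were intergenic, 16 intronic and 14 exonic. Start-site partners took 29.2 ± 0.0856% of counts in B6 and 30.8 ± 2.28% in D2, and none was a zinc finger gene. The median distance was 68.8 kb in every library, the distance of its strongest partner. Higher coordinates took 70.1 ± 0.839% of counts in B6 and 71.1 ± 0.286% in D2.

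That strongest partner was the anchor over Snx10, a sorting nexin gene, with 21.4% of the Cbx3 counts. It had 123 and 139 counts in B6 and 183 and 148 in D2, or 42.3, 49.6, 66.1 and 50.3 CPM. D2 replicate 2 was barely above B6 replicate 2, and the log2 fold change was 0.27 ± 0.22 (edgeR adjusted p = 0.707). An intergenic anchor between the 2, 39.7 kb from Cbx3 at chr6:51501664-51520350, had 98 and 93 counts in B6 and 138 and 129 in D2, a wider gap between the strains relative to their spread (33.5 ± 0.348 and 46.8 ± 4.27 CPM; log2 fold change of 0.42 ± 0.23, edgeR adjusted p = 0.474).

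On the other side, the anchor over Nfe2l3, a transcription factor gene 38.2 kb away, had 15 counts in each B6 library and 17 and 15 in D2. The smallest p among Cbx3 pairs belonged to an intergenic anchor 201.3 kb away at chr6:51267246-51272787, with 8 and 19 counts in B6 and 6 and 7 in D2 (log2 fold change of -1.11 ± 0.50, edgeR adjusted p = 0.334). Of these 2, only the intergenic pair had the strains apart, with B6 replicate 2 far above the other 3 libraries.

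None of the 25 tested Cbx3 pairs passed by edgeR, 1 had an unadjusted p under 0.05, and DESeq2 called none. Of the 25 log2 fold changes 15 were above 0 (60%, against 51.1% of all tested pairs). The 25 had a median of 0.11 and a range from -1.11 to 0.86. D2 replicate 1 was highest in 10 (40%, against 31.8% of all tested pairs). Pairs around Cbx3 that did not use its anchor had 399 and 443 CPM in B6 and 408 and 430 CPM in D2, a log2 ratio of -0.01. Of 50 tested pairs there none passed by edgeR or DESeq2, and 4 had an unadjusted edgeR p under 0.05.

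**Figure D4:**
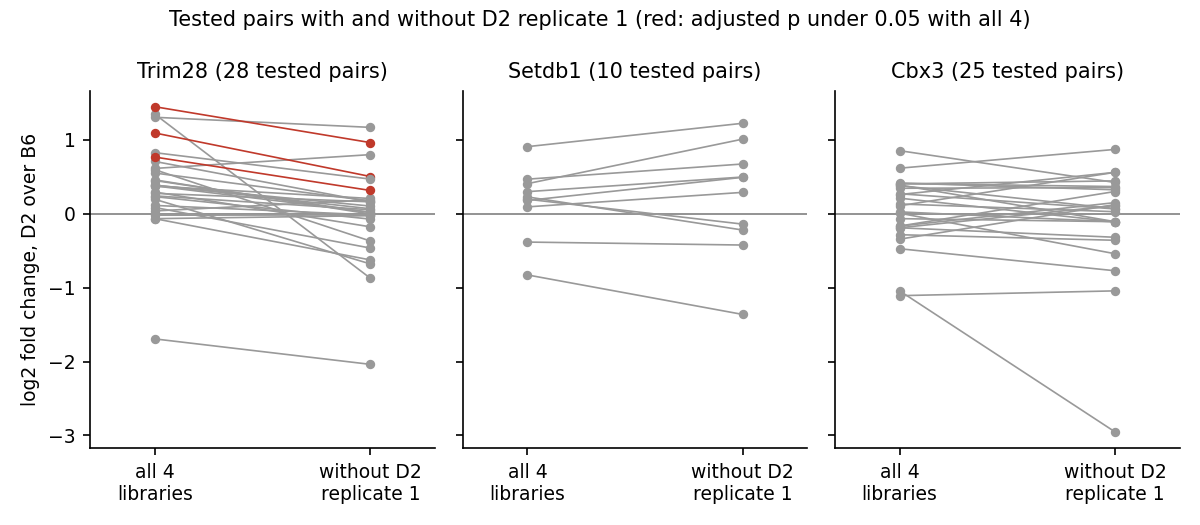
Log2 fold change (D2 over B6, y axis) of each tested pair of Trim28 (28), Setdb1 (10) and Cbx3 (25) with all 4 libraries and without D2 replicate 1, joined by a line; red lines passed the edgeR test with all 4. The Trim28 median goes from 0.38 to 0.04, and the 3 red lines stay above 0, at 0.51, 0.32 and 0.96.

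By the authors' q-value under 0.01 in single libraries, Trim28 had 27, 27, 31 and 30 significant pairs in B6 replicates 1 and 2 and D2 replicates 1 and 2. Cbx3 had 28, 37, 44 and 37, and Setdb1 had 12, 6, 9 and 8. The number in all 4 libraries was 19 for Trim28, 19 for Cbx3 and 3 for Setdb1, which were 23.8% of the Trim28 rows, 19.4% of the Cbx3 rows and 2.97% of the Setdb1 rows. The Zfp324, Snx10 and Mindy1 and Prune1 pairs were among them. Some of the pairs past the q-value in a library had fewer than 4 counts there. With at least 4 counts, Trim28 had 22, 21, 24 and 23 such pairs. Cbx3 then had 19, 22, 26 and 22, and Setdb1 had 3, 4, 2 and 4.

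The 5 genes without an anchor over a start site differed in how near an anchor came. The nearest anchor was 448 bp from a start of Atf7ip, 2470 bp from one of Morc3, 15433 bp from Cbx5, 27176 bp from Cbx1 and 36555 bp from Zfp57. Each distance runs to the nearest of all annotated starts of the gene. For Morc3, Cbx5 and Zfp57 that start lies inside the gene, and the gene's first start is farther from any anchor. The distances thus rank the genes by their nearest start only. The anchors inside the 5 genes were taken, with the nearest one outside where it was nearer or the gene had none. They came to 10, 7 in a gene and 3 outside. Of these 10, 1 passed the anchor test, where 9.75% of all 51820 tested anchors did, 2.67% higher and 7.08% lower in D2.

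The anchor that passed lay inside Atf7ip, the gene of the SETDB1 partner (chr6:136506167-136610862, plus strand), at chr6:136580397-136586001. It had 67 and 78 counts in B6 but 30 and 30 in D2, or 23.0, 27.8, 10.8 and 10.2 CPM. The groups were well apart, with means of 25.4 ± 3.40 and 10.5 ± 0.459 CPM and a log2 fold change of -1.24 ± 0.24 (edgeR adjusted p = 0.000213). It passed under all 10 alternative settings, with log2 fold changes from -1.35 to -1.12 and adjusted p-values from 2.36e-05 to 0.0431.

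Of the other 2 anchors inside Atf7ip, the one at chr6:136570518-136573215 had 50 and 56 counts in B6 and 33 and 31 in D2 (log2 fold change of -0.69, edgeR adjusted p = 0.0711). The one at chr6:136609342-136612811 had 47, 48, 25 and 43 counts (-0.45). The 23.4 kb anchor 448 bp upstream of the gene, at chr6:136482292-136505719, had 490 and 420 counts in B6 and 545 and 366 in D2, with no separation of the strains (0.06); this value was -0.38 without D2 replicate 1 and 0.40 without D2 replicate 2 (edgeR adjusted p = 0.184 and 0.0366). Pairs within 500 kb of the Atf7ip starts that used none of these 4 anchors had 288 and 305 CPM in B6 and 145 and 132 CPM in D2, a log2 ratio of -1.09 with the strains well apart. Of 26 tested pairs there, 22 had a log2 fold change below 0, where 51.1% of all tested pairs had one above 0. By edgeR 4 passed, all 4 lower in D2, where 0.957% of all tested pairs passed lower in D2. DESeq2 called 1.

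Morc3 (chr16:93832121-93876073, plus strand) had 2 anchors toward its end. The one inside the gene, at chr16:93862983-93874307, had 274 and 236 counts in B6 and 177 and 269 in D2 (log2 fold change of -0.17). The other, at chr16:93874897-93892556, reached past the end of Morc3 over a start of Chaf1b, a chromatin assembly factor gene, and had 493 and 412 counts in B6 and 419 and 499 in D2 (0.05). Neither separated the strains. The pair these neighbouring anchors formed with each other, 15.1 kb between midpoints, had 88, 74, 77 and 112 counts.

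Among the HP1 genes without a start-site anchor, Cbx5 (chr15:103191544-103239816, minus strand) had 2 anchors in its body. They had 118 and 92 counts in B6 and 83 and 90 in D2 (chr15:103190071-103194524; log2 fold change of -0.24), and 51, 37, 52 and 52 in the 4 libraries (chr15:103197668-103199872; 0.28). One of its thin pairs reached the anchor over Hoxc12 and Hoxc13, 260.5 kb away, with 6, 8, 4 and 4 counts. Cbx1 (chr11:96789127-96808640, plus strand) had no anchor in its body, and the nearest, at chr11:96759559-96761951, had 27 and 29 counts in B6 and 27 and 41 in D2 (0.31). None of the 3 passed.

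Zfp57 (chr17:37001163-37010635, plus strand), the imprinting factor, had no anchor in its body, and the nearest, at chr17:37041158-37086840, lay over starts of the GABA-B receptor gene Gabbr1 and the olfactory receptor gene Olfr90. It had 634 and 615 counts in B6 and 519 and 436 in D2, both D2 libraries below both B6 libraries (log2 fold change of -0.34, edgeR adjusted p = 0.232). Its pair with the anchor over Olfr94 and the ubiquitin-like gene Ubd, 130.2 kb apart, had 131 and 124 counts in B6 and 73 and 60 in D2 and passed (log2 fold change of -1.002 ± 0.23, edgeR adjusted p = 0.00411), the only one of its 24 tested pairs to do so. Among all tested pairs 1.45% passed by edgeR, 0.957% lower in D2. The anchor nearest to Zfp57 lies beyond the gene and touches no start of the gene itself.

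**Figure D5:**
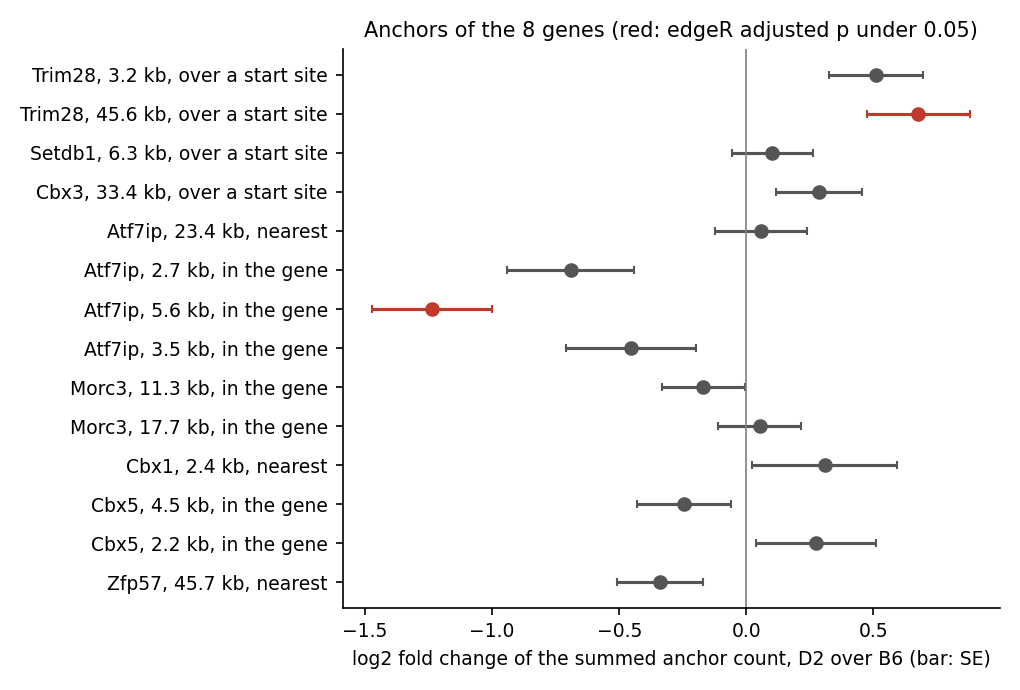
Log2 fold change (D2 over B6, x axis, bars are SE) of the summed counts of the 4 anchors over start sites of members and of the 10 anchors inside or nearest to the other 5 genes, labelled by gene, anchor width and place. Red points passed the edgeR test: the 45.6 kb Trim28 anchor at 0.68 and the 5.6 kb anchor inside Atf7ip at -1.24.

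Other genes of H3K9 methylation, the HUSH complex, histone deacetylation, SUMO conjugation and histone deposition were read from a list of 31 names. Of these, 27 had an anchor over a start site, 38 anchors in all. Suv39h1, Atrx and Rif1 had none, the first 2 lying on the X chromosome, which the table does not cover, and 2810474O19Rik is not a name in the annotation used. Of the 38 anchors, 2 passed (edgeR; 10.7% of all tested anchors over start sites did), and 24 had a log2 fold change above 0, with a median of 0.13 against 0.07 over all 18226. The anchor over Morc2a, an ATPase gene that works with HUSH, had 184 and 203 counts in B6 and 361 and 234 in D2 (log2 fold change of 0.67 ± 0.18, edgeR adjusted p = 0.0103), again with D2 replicate 1 highest. One of the anchors over a start of the histone deacetylase gene Hdac1 had 764 and 724 counts in B6 and 539 and 460 in D2 (-0.53 ± 0.17, edgeR adjusted p = 0.0400), and the neighbouring anchor, also over an Hdac1 start, had 875, 855, 904 and 735 (-0.03 ± 0.18). Both calls were lost under DESeq2 (adjusted p of 0.647 for Morc2a and 0.163 for Hdac1), with no count minimum (edgeR adjusted p of 0.152 and 0.113) and without B6 replicate 1 (0.152 and 0.315). The Morc2a call was also lost without D2 replicate 1 (log2 fold change of 0.21, edgeR adjusted p = 0.574), and the Hdac1 call without B6 replicate 2 (0.275) or D2 replicate 2 (0.122). With library totals in place of TMM factors, 9 of the 38 passed.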

How the data were processed

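The deposited series table gives raw read-pair counts per anchor pair and library, and the authors' distance in bp between anchor midpoints. The deposited single-library files, which have no header, hold the same counts (all 733 nonzero member counts were equal) and a value from 0 to 1 taken as the authors' q-value for the pair; the caller's version and settings are not given in the sources used here. HiC-Pro 2.11.4, DESeq2 and mm10 are named in the submitters' processing notes without a role, and how D2 reads were aligned is not given in the sources used here. All anchors began and ended at GATC in GRCm38 (mm10), and genes are those of GENCODE M21; the table covers the 19 autosomes.

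CPM used the whole-table totals. Pairs and anchors (summed over their pairs) with at least 20 counts over the 4 libraries were fitted over the whole table with edgeR 4.0.16 (quasi-likelihood, TMM; limma 3.58.1, R 4.3.3), D2 against B6, Benjamini-Hochberg adjusted, with 0.05 as threshold; DESeq2 1.42.0 was an alternative. The fit was tested on simulated data. For each gene the text names the pair with the most counts, the smallest p, every passing pair and the longest tested pair (2 pairs are not reported here); further pairs, and the anchors of genes without a start-site anchor, were chosen after their values were seen. Surroundings were pairs with both anchors within 500 kb of the median transcript start, leaving out anchors over the gene and the nearest one. The members, lists and tests were chosen with earlier results of these data known. The labels do not state that the replicate numbers pair lines across strains. Deviations of same-numbered libraries correlated at -0.0014 (pairs) and 0.0045 (anchors), and a shared batch was not tested.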

Additional observations from a re-analysis of the deposited data

How the results depend on the processing

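Trim28 calls depended on the processing, and each count below is of passing pairs, anchors or list anchors. Member pairs numbered 3 and became 5 with library totals in place of TMM and 5 with no count minimum. They became 1 with at least 50 counts and 0 under DESeq2 (6 at an unadjusted p under 0.05). Member anchors numbered 1 and became 0 under DESeq2 (0 at an unadjusted p under 0.05) or with no minimum (2). Gene starts only, in place of all transcript starts, could not test these calls. The Trim28 gene start lies in its narrow anchor, so this setting dropped the wide anchor as a member anchor. All 3 passing pairs and the passing anchor used that wide anchor. Of the 41 pairs and 3 anchors left, none passed (3 and 1 at an unadjusted edgeR p under 0.05). List anchors numbered 2 and became 9 with totals, and 0 under DESeq2 (6) or with no minimum (11), with 0 to 8 on leaving out 1 library. With the replicate block, though the numbers are not stated to pair the lines, 2 member pairs, 2 member anchors and 6 list anchors passed. Leaving out B6 replicate 1, B6 replicate 2 or D2 replicate 1 ended every Trim28 call. TMM over all pairs moved the median of all pairs from 0.02 to 0.09 and kept 3 member calls.

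Keeping pairs with at least 20 counts moved the Setdb1 log2 level difference from 0.07 to 0.19 and its distance difference, D2 minus B6, from 0 to 15.2 kb, and the Trim28 distance difference from -0.67 to -13.2 kb (-6.08 kb with at least 2 counts in the library). Member pairs past the authors' q-value, 74 per library on average, became 64.8 at q under 0.001 and 48 with at least 4 counts. Leaving out 1 library turned the sign of 6 log2 fold changes that had not passed, with ranges from -0.68 to 0.75 for Sult2a3, -0.15 to 0.30 for the 9.72 kb Setdb1 pair, -0.74 to 1.01 for Pip5k1a and Psmd4, -0.38 to 0.40 for the anchor upstream of Atf7ip, -0.39 to 0.012 for the Morc3 anchor inside the gene and -0.066 to 0.17 for the one shared with Chaf1b. The cause was not tested. Setdb1, with 10 pairs of at least 20 counts, has the least depth.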
